A study of Coturnix japonica with 4 samples.

Results

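The ectodysplasin genes described here are EDA, EDAR, EDARADD, EDA2R and TNFRSF19, taken by their gene IDs from the deposited expression table. All 5 had a row, among 12383 genes in all. Ectodysplasin is a ligand of the tumour necrosis factor (TNF) family that the ectoderm uses when it forms hair, teeth, scales and feathers. It is cut free from the cell surface, binds its receptor EDAR on placode cells, and EDAR then recruits the adaptor EDARADD, which starts signalling to the transcription factor NF-κB. In chick skin EDAR marks the epidermal thickenings, or placodes, from which feather buds grow, and it acts there with Wnt, FGF and BMP signals.

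The samples were skin of untreated Japanese quail (Coturnix japonica) embryos at embryonic day 7, cut from the black or from the yellow stripes. Each stripe had 2 libraries, and each library held pooled tissue of 4 embryos. The sources used here do not give the strain, the sex of the embryos or the body region that was cut. The table holds 1 value per stripe in RPKM (read count divided by transcript length in kilobases and by library size), in a column named E7B for the black and E7Y for the yellow stripe. It therefore gives no spread between libraries, and no SD or n stands beside the levels. The tissue is bulk skin, in which fewer cells of a type and less RNA per cell cannot be told apart.

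Markers of both skin layers were present. All 16 epidermal markers with a row, of 26 listed, lay above 1 RPKM, with a summed level of 627 RPKM in E7B and 684 RPKM in E7Y. The most abundant were the adhesion protein EPCAM (111 and 126 RPKM), the tight junction protein CLDN1 (97.6 and 122 RPKM) and the desmosome protein DSP (98.5 and 108 RPKM). The 13 dermal fibroblast markers summed to 2994 and 2883 RPKM. The 11 melanocyte markers summed to 234 RPKM in E7B and 624 RPKM in E7Y, against the names of the stripes, and 9 of them had the higher value in E7Y. Of the 11, 5 (TYR, TYRP1, DCT, PMEL and MLANA) had q = 0.0177 in the authors' deposited table, all higher in E7Y. Over the 10569 genes with p under 1 there, 35 (0.331%) had q under 0.05 in either direction. PMEL, the fibril protein of the melanosome, had 118 and 336 RPKM, the pigment enzyme TYRP1 2.71 and 68.2 RPKM, and the melanosome protein MLANA 14.7 and 53.5 RPKM. The values are therefore called E7B and E7Y after their columns, and each direction given here rests on those names. Whether the column names match the stripes that were cut was not tested.

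All 5 genes were well above the floor of 1 RPKM in both stripes, and none passed the test between the stripes. In the authors' deposited table each of the 5 had a q-value (false discovery rate) of 1, and 0 of 5 had p under 0.05 before adjustment. Over the 10569 genes with p under 1, taken here as tested, 0.331% had a q-value under 0.05 and 3.46% p under 0.05 before adjustment. At shares so small over all genes, 0 of 5 does not set these genes apart. Of the 5, 2 were nominally higher in E7B and 3 in E7Y, and their median log2 ratio (E7B over E7Y) was -0.015. Over the 10061 genes averaging 1 RPKM or more the median was -0.0005 and the SD 0.25. Of them 5005 were nominally higher in E7B and 5049 in E7Y. None of the 5 reached a 1.5-fold ratio, which 2.86% of these 10061 genes did.

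**Figure D1:**
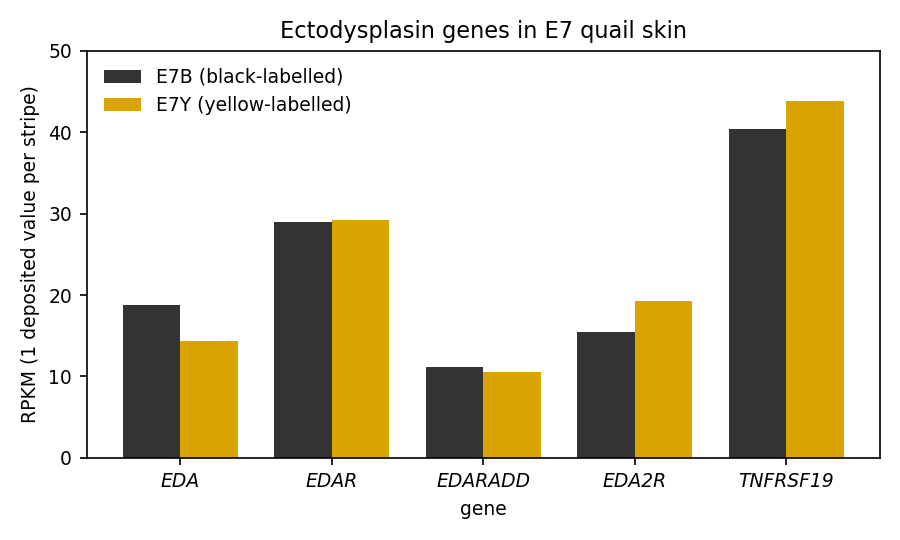
RPKM of the 5 ectodysplasin genes in E7B (dark bars) and E7Y (yellow bars), with 1 deposited value per bar and so no error bar. TNFRSF19 is the highest at 40.4 and 43.8 RPKM, EDARADD the lowest at 11.2 and 10.6 RPKM, and EDA and EDA2R lean in opposite directions.

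EDA, the ligand, had 18.8 RPKM in E7B and 14.4 RPKM in E7Y. E7B was 1.31-fold higher, a log2 ratio of 0.39 with p = 0.103 in the authors' deposited table. This was the largest ratio of the 5 genes, and 93.4% of genes averaging 1 RPKM or more had a smaller one in either direction. The gene makes splice forms of which one binds EDAR and another binds EDA2R, and a value per gene does not separate them.

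EDAR, the receptor that marks placodes, had 28.9 RPKM in E7B and 29.3 RPKM in E7Y. Its log2 ratio of -0.015 was the smallest of the 5, with p = 0.939 in the authors' deposited table, and its sign turned when the ratio was set against that of the epidermal markers (0.13). The median log2 ratio of those 16 markers was -0.14, with 12 of them nominally higher in E7Y. Of the 16, 0 had p under 0.05 before adjustment in the authors' deposited table, beside 321 of the 10061 genes averaging 1 RPKM or more. With so small a share over all genes, 0 of 16 does not set these markers apart. The part of epidermal content in the EDAR values was not tested. EDAR was higher than 74.1% of genes averaging 1 RPKM or more. The genes nearest to it in both values were the mitochondrial GTPase MTG1 (28.9 and 29.3 RPKM), the transcriptional repressor DR1 (29.0 and 29.3 RPKM) and the chromatin protein YEATS4 (28.8 and 29.2 RPKM). Likeness here means the Euclidean distance of log2 RPKM over only 2 values, and 201 genes lay within 0.1 of EDAR on that scale, so it singles out no gene.

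EDARADD, the death-domain adaptor that links EDAR to its signalling complex, had 11.2 RPKM in E7B and 10.6 RPKM in E7Y. The log2 ratio was 0.077, with p = 0.742 in the authors' deposited table. It was the least abundant of the 5. The receptor EDAR stood at 2.59 times the RPKM of its adaptor in E7B and 2.76 times in E7Y.

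EDA2R, the receptor of the other ligand form, had 15.4 RPKM in E7B and 19.2 RPKM in E7Y. The log2 ratio was -0.32, or 1.25-fold higher in E7Y, with p = 0.119 in the authors' deposited table. The ligand and this receptor thus leaned in opposite directions, neither of them past the test. In RPKM, EDA2R stood at 0.820 times EDA in E7B and at 1.34 times EDA in E7Y, and EDAR at 1.54 and 2.03 times EDA. These quotients have no replicate error and were not tested. In the RefSeq annotation of Coturnix japonica 2.1 the span of EDA2R overlaps WBP1, MOGS, CCDC142 and LOC107306817, and the sources do not say if counting used strand, so its reads may be shared. WBP1 had 24.3 and 22.9 RPKM, MOGS 12.3 and 11.6 RPKM and CCDC142 2.08 and 2.17 RPKM, none with p under 0.05 before adjustment in the authors' deposited table. The spans of the other 4 genes overlap no annotated gene.

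TNFRSF19, a receptor of the TNF receptor family also known as TROY, had 40.4 RPKM in E7B and 43.8 RPKM in E7Y. It is described here as 1 of the 5 genes chosen, and the values do not bear on which ligand it binds. Its log2 ratio of -0.11, with p = 0.568 in the authors' deposited table, became 0.027 when set against the epidermal markers. It was the most abundant of the 5, higher than 82.9% of genes averaging 1 RPKM or more. By mean RPKM the order was TNFRSF19, EDAR, EDA2R, EDA and EDARADD. With 1 value per stripe it cannot be said which neighbours differ beyond their spread, and EDA and EDA2R changed places between the stripes.

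**Figure D2:**
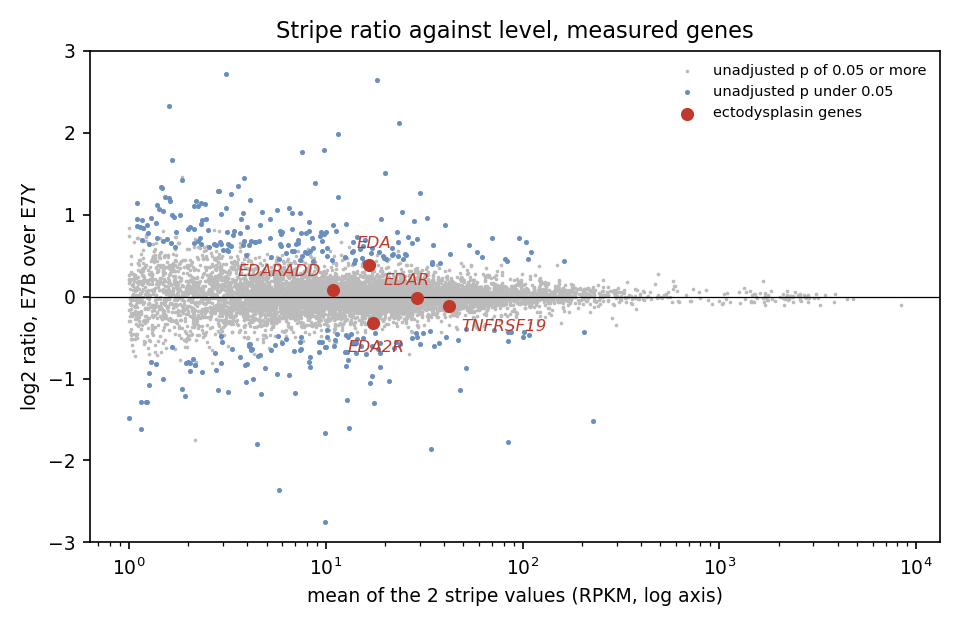
Log2 ratio of E7B over E7Y RPKM (vertical) against the mean RPKM (horizontal, log axis) for the 10061 genes averaging 1 RPKM or more. Blue points have p under 0.05 before adjustment in the authors' deposited table, grey points do not, and red points are the ectodysplasin genes. All 5 red points lie in the grey cloud, with EDA the highest and EDA2R the lowest of the 5. A further 4 genes beyond a log2 ratio of 3 in either direction are outside the axis.

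The size of observed ratio that reached p under 0.05 in the authors' deposited table bears on how these values are read. Among the 4956 tested genes with a mean between 10 and 50 RPKM, the range that holds all 5, 101 (2.04%) had p under 0.05 before adjustment in the authors' deposited table. The smallest absolute log2 ratio among those 101 was 0.40. The 23 genes of that range with p between 0.04 and 0.06 had a median absolute log2 ratio of 0.43, a 1.34-fold difference. Of 95 genes there with an absolute log2 ratio from 0.3 to 0.4, 1 had p under 0.05 before adjustment. The ratios of EDA (0.39) and EDA2R (-0.32) fall in that band, where the authors' p ran from 0.0494 to 0.733. Observed ratios of that size thus mostly did not reach p under 0.05, and those of EDAR, EDARADD and TNFRSF19 were smaller still. These counts do not give the size of a true difference that the authors' test could detect. Set against the epidermal markers, EDA stood at 0.53 and EDA2R at -0.18. The band from 0.3 to 0.4 rests on ratios without that scaling, so these 2 cannot be placed against it, and no p belongs to them.

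Among the other receptors of the TNF family, 15 of 20 listed had a row and 11 reached a mean of 1 RPKM. Together with the 3 receptors among the 5 genes described here, 18 listed receptors could be ordered by level. By the mean of E7B and E7Y, TNFRSF19 took place 1, EDAR place 3 and EDA2R place 5. Taken alone, EDAR was at place 4 in E7B, under TNFRSF21, and at place 2 in E7Y, above NGFR. Between them by the mean came NGFR, the p75 neurotrophin receptor, at 32.7 RPKM in E7B and 26.7 RPKM in E7Y, and TNFRSF21, death receptor DR6, at 29.6 and 20.7 RPKM. The next was TNFRSF1A, a TNF receptor, at 9.83 and 9.57 RPKM. TNFRSF21 was the 1 other receptor with p under 0.05 before adjustment (p = 0.0158, log2 ratio 0.52) in the authors' deposited table, and 0 of 11 had a q-value under 0.05. In this direction, higher in E7B, 192 of the 10061 genes averaging 1 RPKM or more reached p under 0.05 before adjustment. The median log2 ratio of the 11 was 0.070. Of 10 other TNF ligands 8 had a row, and only TNFSF10, a death ligand (14.8 and 12.5 RPKM), and TNFSF15 (2.79 and 2.60 RPKM) reached a mean of 1 RPKM. The death ligand FASLG was the next, at 0.226 and 0.337 RPKM. By mean RPKM, EDA was the most abundant of the 9 listed ligands with a row.

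**Figure D3:**
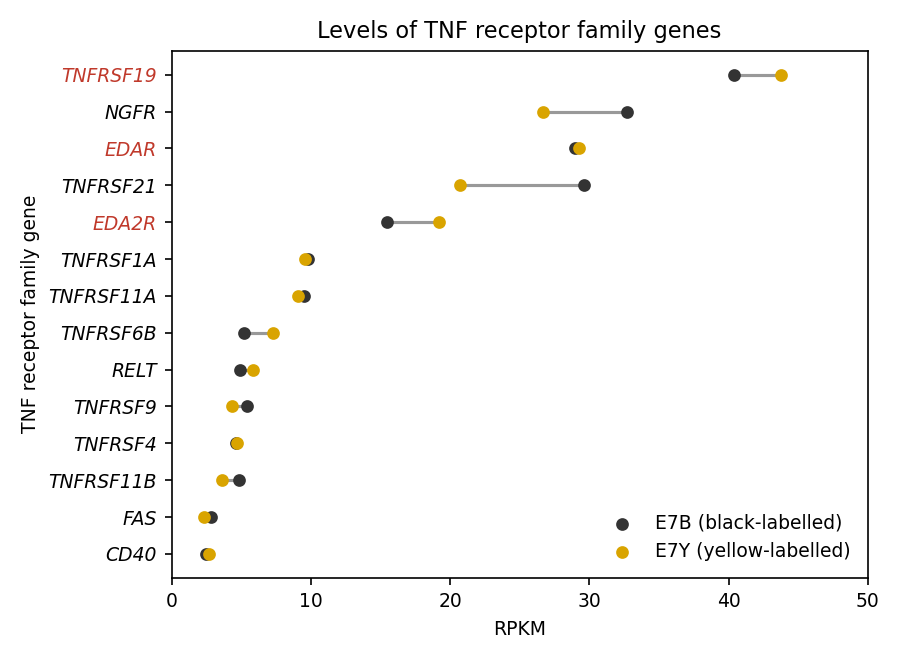
RPKM of the 14 TNF receptor family genes, among those listed here, that average 1 RPKM or more, ordered by mean. Dark points are E7B, yellow points are E7Y, and a grey line joins them. Family members outside the list were not looked up. Red names mark the receptors among the genes described here, TNFRSF19, EDAR and EDA2R. By the mean they take places 1, 3 and 5 among the 14, at 42.1, 29.1 and 17.3 RPKM.

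The proprotein convertases, of which FURIN is known to cut EDA from the membrane, all had a row. PCSK6 had 19.5 RPKM in E7B and 17.4 RPKM in E7Y, FURIN 12.1 and 10.9 RPKM and PCSK7 7.11 and 6.94 RPKM. All 4 were nominally higher in E7B, as were 5005 of the 10061 genes averaging 1 RPKM or more. The median log2 ratio of the 4 was 0.16, and the lowest unadjusted p was 0.367 in the authors' deposited table.

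The adaptors and kinases that carry the receptor signal to NF-κB had log2 ratios from -0.37 to 0.24. Of 18 listed, 14 had a row and 13 reached a mean of 1 RPKM. CHUK, IKBKG, RELA and RELB had no row, so the list says nothing of them. The median log2 ratio of the 13 was -0.017, with 5 nominally higher in E7B and 8 in E7Y. Of the 13, 0 had p under 0.05 before adjustment in the authors' deposited table, beside 321 of the 10061 genes averaging 1 RPKM or more. With so small a share over all genes, 0 of 13 does not set the list apart. At the top in level were the adaptor TAB2 (39.7 and 39.5 RPKM), the NF-κB subunit NFKB1 (34.3 and 33.3 RPKM) and the kinase MAP3K7, or TAK1 (34.6 and 32.7 RPKM). TRAF6, the ubiquitin ligase that EDARADD is known to recruit, had 6.13 and 6.14 RPKM, and IKBKB, a catalytic subunit of the IκB kinase, 20.8 and 22.9 RPKM. TRAF6 and IKBKB were named for their role after their values were seen.

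Of 10 listed inhibitors and feedback genes of NF-κB, 8 had a row and 7 passed the floor. These 7 had a median log2 ratio of 0.20, with 5 nominally higher in E7B and 2 in E7Y. NFKBIA, the inhibitor IκBα, itself a target of NF-κB, had 27.2 RPKM in E7B and 19.2 RPKM in E7Y. Its log2 ratio was 0.50, with p = 0.0368 and q = 1 in the authors' deposited table. Among the 7, only NFKBIA had p under 0.05 before adjustment. Of the 10061 genes averaging 1 RPKM or more, 192 reached that p higher in E7B and 129 higher in E7Y. Of all tested genes, with no floor, 2.07% reached it higher in E7B and 1.39% higher in E7Y. TNIP3, a gene related to the inhibitor TNIP1, lay below the floor at 0.793 and 0.188 RPKM, with p = 0.0016 and q = 0.201 in the authors' deposited table. TNIP1, an inhibitor of NF-κB, had 15.2 and 13.2 RPKM and the deubiquitinase CYLD 13.2 and 13.7 RPKM. No member had a q-value under 0.05.

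Genes known from mouse placodes to respond to ectodysplasin leaned in both directions. Of 13 listed, 9 had a row and 8 reached a mean of 1 RPKM, with 3 nominally higher in E7B and 5 in E7Y and a median log2 ratio of -0.14. FGF20, an FGF signal that feather placodes need, had 2.10 RPKM in E7B and 0.828 RPKM in E7Y. Its mean of 1.46 RPKM was near the floor of 1 RPKM, and its E7Y value lay below that floor. Its log2 ratio was 1.34, with p = 0.00315 and q = 0.292 in the authors' deposited table. SOSTDC1, a secreted antagonist of BMP and Wnt signals, had 90.5 and 126 RPKM. That log2 ratio was -0.47, with p = 0.0144 and q = 0.755 in the authors' deposited table. FST, an antagonist of activin and BMP signals, had 55.6 and 41.8 RPKM, and the hedgehog ligand SHH 25.7 and 32.6 RPKM. The members with p under 0.05 before adjustment were thus 1 of the 8 in each direction, and 0 of the 8 had a q-value under 0.05. Of the 10061 genes averaging 1 RPKM or more, 192 reached that p higher in E7B and 129 higher in E7Y. At a floor of 5 RPKM 7 members remained, of which 1 had p under 0.05 before adjustment.

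Among 25 signals and regulators that act beside EDAR in placodes, 24 reached a mean of 1 RPKM and had a median log2 ratio of 0.041. A p under 0.05 before adjustment in the authors' deposited table was reached by 3 of the 24 higher in E7B and 1 higher in E7Y. Of the 24, 0 had a q-value under 0.05. Of the 10061 genes averaging 1 RPKM or more, 192 reached that p higher in E7B and 129 higher in E7Y. The Wnt antagonist DKK1 had 29.2 and 16.8 RPKM, a log2 ratio of 0.79. FGF10, an FGF ligand, had 7.55 and 4.37 RPKM, a log2 ratio of 0.79. BMP2, which limits placode formation in chick skin, had 9.28 and 6.38 RPKM, a log2 ratio of 0.54. MSX1, a homeobox factor, had 5.35 and 8.50 RPKM, a log2 ratio of -0.67. The most abundant members were the Wnt effector CTNNB1, β-catenin (614 and 561 RPKM), the receptor FGFR2 (130 and 143 RPKM) and the Wnt-responsive factor LEF1 (143 and 127 RPKM), none of them with p under 0.05 before adjustment.

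**Figure D4:**
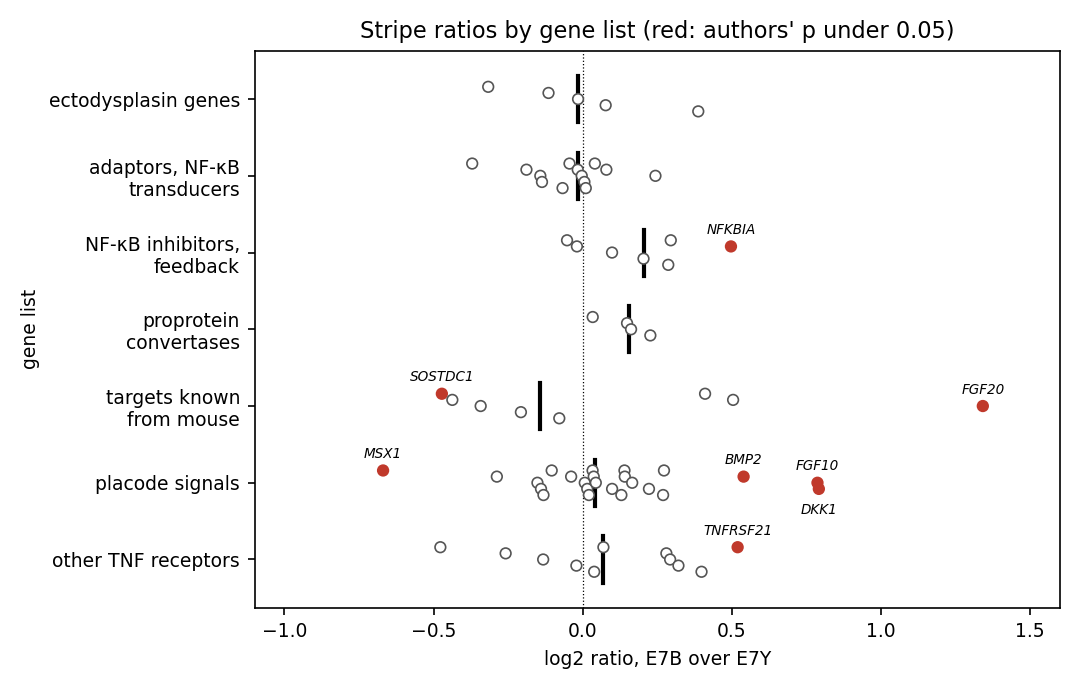
Log2 ratio of E7B over E7Y RPKM for each gene averaging 1 RPKM or more, by list, with 1 circle per gene and a black bar at the list's median. Red circles have p under 0.05 before adjustment in the authors' deposited table, as do 321 of all 10061 genes of that level. No circle of the ectodysplasin genes, of the adaptors and transducers or of the proprotein convertases is red.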

How the data were processed

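The deposited tables hold 1 RPKM value per stripe, computed by the authors, and per the file headers the authors' log2 ratio, p-value and q-value per gene, exported from a QIAGEN program. The submitters' processing notes name TopHat2 2.1.1 and Cufflinks 2.2. The sources used here do not state the genome build, the annotation, strand handling or the way libraries were combined. RPKM hide the read totals, and low values showed no common step (452 genes under 0.1 RPKM in both stripes had 358 different ratios), so depth is unknown. A further 2 value columns that name no stripe were not used.

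Of 12419 rows, 11 with IDs turned into numbers and 25 with repeated transfer RNA IDs, all at 0 RPKM, were left out. Log2 ratios were computed from RPKM without a pseudocount (Python 3.11.15, pandas 2.3.3). The authors' log2 ratios lay within 0.01 of them in each of 10503 genes reaching 0.5 RPKM in E7B and E7Y. The 10569 genes whose p lay under 1 count as tested, and a gene passed at a q-value under 0.05. No test was run here, since a stripe has 1 value. Lists count members averaging 1 RPKM or more. Named are all 5 genes, pathway list members with p under 0.05 before adjustment, the 3 most abundant of each pathway list and of the epidermal and melanocyte markers, and the 3 genes nearest to EDAR. Members and lists were chosen with earlier results of these data known.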

Additional observations from a re-analysis of the deposited data

How the results depend on the processing

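Scaling to the median, the upper quartile or the 19 housekeeping genes (median -0.0039), and pseudocounts of 0.1 and 1 RPKM, left all 5 log2 ratios on their side of 0. Set against the epidermal markers (median -0.14), EDAR became 0.13 and TNFRSF19 0.027, while EDA became 0.53, EDARADD 0.22 and EDA2R -0.18. None of the 5 genes was called at q under 0.1, at unadjusted p under 0.05, at 1.5-fold, or with p-values adjusted again over genes averaging 1 RPKM or more. Scaling and pseudocounts cannot alter the authors' p-values or q-values. At q under 0.05, the threshold used here, 35 genes were called over all genes. These became 57 at q under 0.1, 366 at unadjusted p under 0.05 and 288 at 1.5-fold. The authors' own mark of differing genes was on 366 genes, all with p under 0.05 before adjustment. The median of other TNF ligands, 0.18 over 2 members, was -0.11 with members down to 0.1 RPKM and -0.065 with no floor, where more members of low level enter. No paired analysis was possible because the columns hold 1 value per stripe, and for the same reason leaving out replicates was not run.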

Other observations

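Markers of other cell types in the dissected skin are given as a description, with no test of a list. Of 5 smooth muscle markers averaging 1 RPKM or more, 4 were nominally higher in E7Y and 1 (DES) in E7B. Their median log2 ratio (E7B over E7Y) was -0.44 over 5 members, of which 2 had p under 0.05 before adjustment on the E7Y side and 1 on the E7B side in the authors' deposited table. MYH11, the smooth muscle myosin, was higher in E7Y (log2 ratio -1.80, q = 0.0177 in the authors' deposited table), and DES, the muscle filament desmin, had a log2 ratio of 1.11 with p = 0.00565 there. Neuron markers were split, with log2 ratios from -0.84 to 0.80 and a median of 0.51 over 6 members. Of these 6, 1 had p under 0.05 before adjustment on the E7B side (TUBB3) and 2 on the E7Y side (GAP43 and ELAVL4) in the authors' deposited table. Over all 10061 genes averaging 1 RPKM or more, 192 reached this p on the E7B side and 129 on the E7Y side.

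Of 10 skeletal muscle markers listed, 7 had a row and 4 reached a mean of 1 RPKM. MYOD1, MYOG and MYF5 lay below it. The median log2 ratio of the 4 was 0.62, with 3 nominally higher in E7B and 1 (ACTA1, log2 ratio -0.22) in E7Y. At p under 0.05 before adjustment were 2 of the 4 (PAX7 and TNNC1), both on the E7B side in the authors' deposited table. Of 9 cartilage and bone markers listed, 8 had a row and 4 reached that mean. All 4 were nominally higher in E7B, with a median of 0.35, and 1 (COL2A1) had p under 0.05 before adjustment in the authors' deposited table. Of the 10061 genes averaging 1 RPKM or more, 192 reached this p on the E7B side and 129 on the E7Y side. Endothelial markers stood at 0.0016 over 6 members, Schwann cell markers at -0.052 over 4, with 1 (FOXD3) at p under 0.05 before adjustment on the E7B side, and blood and immune markers at 0.15 over 5. These genes were picked for naming with their values known. The part of these cells in the values of EDA and EDA2R was not tested.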
